A study of Mus musculus with 12 samples.

Results

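The Zfp genes of mouse liver were chosen by their level. A member has a symbol made of Zfp and a number only, and a mean of at least 2 RPKM over 12 RNA-Seq libraries, where RPKM is the read count of a gene scaled to its length and to the mapped reads of the library. Of 22456 genes listed, 336 have such a symbol, and 111 of these reached the minimum. Another 116 lay between 0.5 and 2 RPKM, and 109 lay under 0.5 RPKM. Zfp949 (2.02 RPKM), Zfp120 (2.02) and Zfp867 (2.03) were the members just inside the minimum, and Zfp770 (1.97 RPKM), Zfp821 (1.95) and Zfp865 (1.94) were just outside it. The choice used the mean level alone, so levels are given below as a description.

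The livers came from male BALB/cByJ mice of 2 to 8 months on a chow diet. Lpin1-/- mice carry the fatty liver dystrophy mutation and lack lipin 1, a phosphatidic acid phosphatase, in the whole body, and Lpin1+/+ mice were their wild-type littermates. Both genotypes were fasted for 16 hours, or fasted for 16 hours and then refed for 5 hours, with 3 mice in each of the 4 groups. Refed mice were killed later in the day than fasted mice, so feeding and time of day cannot be told apart. Each library is bulk RNA from 1 liver, and p-values therefore measure the spread between mice.

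Most Zfp genes encode proteins with C2H2 zinc fingers, small folds in which a pair of cysteines and a pair of histidines hold a zinc ion and which read DNA or RNA in a row, finger by finger. Many also carry a KRAB box, a domain that recruits Trim28 and, through it, the histone methyltransferase Setdb1, HP1 proteins and the NuRD complex to silence transposable elements and other chromatin. Others act in mRNA decay, ribosome assembly or the response to stalled ribosomes.

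Sequencing depth was similar in all libraries, with 93.7 to 125.7 M mapped reads estimated from the steps between low RPKM values. Lpin1 itself was at 0.00573 to 0.0597 RPKM in the 6 Lpin1-/- libraries and at 0.726 to 22 RPKM in the 6 Lpin1+/+ libraries, with no overlap. Summed hepatocyte markers reached 36700 to 84970 RPKM. Kupffer cell markers had sums of 360.6 to 933 RPKM in fasted Lpin1-/- liver, 178.6 to 364.5 in fasted Lpin1+/+, 107.1 to 848.9 in refed Lpin1+/+ and 116.8 to 260.5 in refed Lpin1-/- liver, and all 10 were detected. Stellate cell markers, all 7 detected, summed to 195.3 to 285.6 RPKM in fasted Lpin1-/- liver and to 66.1 to 155.2 RPKM in fasted Lpin1+/+ liver. Cholangiocyte markers summed to 24.9 to 451.6 RPKM in fasted Lpin1-/- and 32.1 to 45.8 RPKM in fasted Lpin1+/+ liver. The libraries least like the others of their group were refed Lpin1+/+ replicate 2 (mean r of 0.933), fasted Lpin1-/- replicate 1 (0.949) and fasted Lpin1+/+ replicate 1 (0.952).

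The median member was at 4.57 RPKM, with quartiles of 2.67 and 7.36, and 19 members reached 10 RPKM. Zfp706, which encodes a small protein with a single finger match, stood far above the rest at 138.3 RPKM, with 105.2 RPKM in its lowest library and 178.5 in its highest. Next came Zfp36 (44.1 RPKM), which encodes tristetraprolin, a protein that drives the decay of mRNAs with AU-rich elements, and Zfp207 (32.4 RPKM), which binds RNA, microtubules and the spindle checkpoint protein Bub3. Zfp622 (21.7 RPKM) and Zfp593 (19.2), assembly factors of the large ribosomal subunit, and Zfp598 (19.9), the ubiquitin ligase that senses collided ribosomes, were also among the 10 highest. Members with a KRAB box match were lower, with 34 of them at a median of 2.80 RPKM, against 5.58 for the 70 members with C2H2 fingers and neither a KRAB nor a SCAN match. Of the 152 listed Zfp genes with a KRAB match 22.4% reached 2 RPKM, against 41.7% of the 168 listed genes with C2H2 fingers only. The leading KRAB members were Zfp809 (15.4 RPKM), a silencer of retroviral elements, Zfp445 (12.7), which guards genomic imprints, and Zfp825 (11.2). Members lay on 19 chromosomes, most often on chromosome 7 (19 members), 17 (13), 8 (12) and 6 (10).

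**Figure D1:**
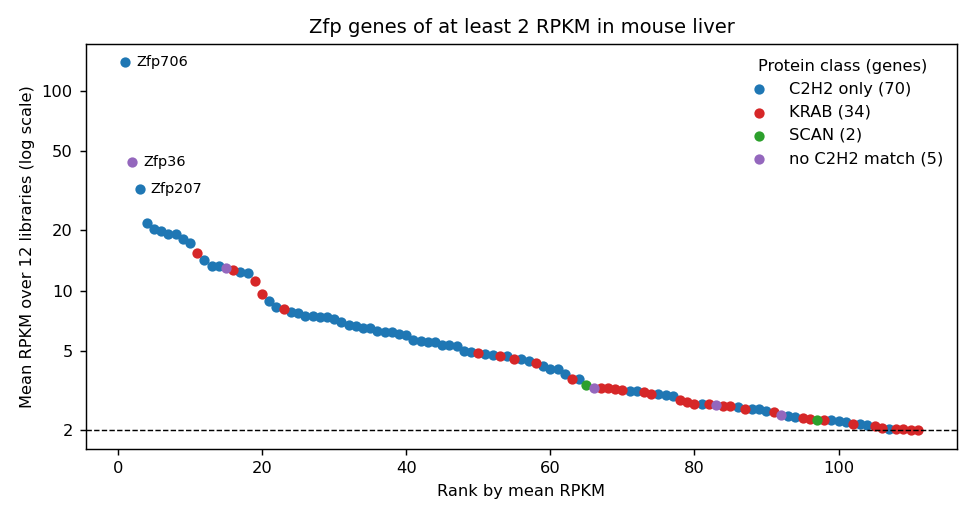
Mean RPKM over the 12 libraries (log axis) of the 111 Zfp genes, ranked from highest to lowest and coloured by the class of protein. The dashed line marks the 2 RPKM of the rule. Zfp706 lies at 138.3 RPKM, 34 KRAB genes lie mostly in the lower ranks, and 48 genes are at 5 RPKM or more.

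Refeeding of Lpin1+/+ mice changed a single Zfp gene. Zfp428, which encodes a protein with 1 finger match, was at 1.41, 1.09 and 1.36 RPKM in fasted and at 3.55, 3.04 and 3.43 RPKM in refed Lpin1+/+ liver, so the groups did not overlap. Its log2 fold change was 0.93 ± 0.16 (SE), with an adjusted p of 0.0196 by limma. Here and below, log2 fold changes are on the log2(RPKM + 1) scale, which understates the change of low genes. Members called made up 0.901% of 111, against 1.72% of all 11507 genes tested. An unadjusted p under 0.05 was found for 12 members and for 1594 of all genes. Groups did not overlap for 20 members (18%), against 18.1% of all genes. The median log2 fold change of the members was 0.12, against 0.19 for all genes, and turned to -0.07 against 0.00 when each library was rescaled by its median ratio to a common reference. Zfp428 was not called there, nor when fasted Lpin1+/+ replicate 2 or 3 or refed Lpin1+/+ replicate 1 or 3 was left out. Over all genes, rescaling gave 50 calls, against 198 without it. Leaving out the 3 libraries least like their group gave 2 calls.

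In fasted liver 18 members were lower and 6 were higher in Lpin1-/- than in Lpin1+/+ mice. These are 21.6% of the members, against 18.8% of all genes tested. Of all genes tested, 1520 were lower and 648 were higher. The groups did not overlap for 45 members (40.5%), against 32.9% of all genes. Rescaled libraries gave 16 lower and 8 higher, and without the 3 libraries least like their group 11 were lower and 10 higher. Over all genes, rescaling gave 1303 lower and 904 higher. Without fasted Lpin1+/+ replicate 3 alone, 13 members were called. The median log2 fold change of the members was -0.09, against -0.14 for all genes, and turned to 0.01 against -0.04 on rescaling.

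Zfp825, a KRAB gene, had the largest fall. It was at 8.28, 17.2 and 16.8 RPKM in fasted Lpin1+/+ liver and at 2.59, 3.10 and 3.17 RPKM in fasted Lpin1-/- liver. All 3 Lpin1-/- values lay under the lowest Lpin1+/+ value, and the log2 fold change was -1.87 ± 0.29 (adjusted p = 0.00171). Zfp207 was at 34.3, 28.2 and 31.5 RPKM in Lpin1+/+ and at 9.64, 8.68 and 12.1 RPKM in Lpin1-/- liver, a log2 fold change of -1.54 ± 0.16 (adjusted p = 0.000305). Zfp638, which encodes a large RNA-binding nuclear protein with a role in adipocyte differentiation, went from 5.39, 3.41 and 3.72 RPKM to 0.706, 1.07 and 1.39 RPKM, and fell by 1.32 on the log2 scale. The groups of both genes were well apart. Zfp750, a regulator of epidermal differentiation in skin, was at 7.03, 1.89 and 3.44 RPKM against 0.957, 0.656 and 0.336 RPKM, and its log2 fold change was -1.52. Zfp426, another KRAB gene, was at 3.38, 2.51 and 3.36 RPKM against 0.822, 0.688 and 0.815 RPKM, and its log2 fold change was -1.19. Zfp260 fell from 6.64, 5.84 and 6.74 RPKM to 2.86, 2.91 and 3.43 RPKM (log2 fold change -0.86, adjusted p = 0.00353). Neither the Zfp750 nor the Zfp426 nor the Zfp260 values of the genotypes overlapped. The other members that fell were Zfp146, Zfp148, Zfp189, Zfp219, Zfp386, Zfp414, Zfp422, Zfp444, Zfp467, Zfp524, Zfp62 and Zfp946.

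Among the 6 members that rose, Zfp622 was the most abundant. This ribosome assembly factor was at 16.7, 11.4 and 15.4 RPKM in fasted Lpin1+/+ liver and at 36.9, 32.2 and 33.6 RPKM in fasted Lpin1-/- liver (log2 fold change 1.2 ± 0.22, adjusted p = 0.00369). Zfp472, a KRAB gene, went from 1.05, 1.63 and 1.85 RPKM to 7.97, 4.59 and 3.82 RPKM, with a log2 fold change of 1.33 ± 0.25. Neither gene's groups overlapped. Zfp623 rose by 1.19 on the log2 scale, from 7.25, 3.30 and 5.76 RPKM to 9.79, 15.6 and 14.9 RPKM. Zfp956 rose from 1.68, 1.48 and 1.30 RPKM to 4.06, 4.38 and 3.68 RPKM, and Zfp653 rose from 2.19, 1.5 and 1.67 RPKM to 3.38, 3.06 and 3.76 RPKM. The sixth, Zfp787, was at 12.3, 16.2 and 15.1 RPKM against 25.9, 21.1 and 21.1 RPKM, with a log2 fold change of 0.61 and an adjusted p of 0.0442 that was lost in 12 of 15 alternatives. Zfp36, which answers rapidly to inflammatory signals, was at 53.0, 29.0 and 23.5 RPKM against 43.8, 92.2 and 97.4 RPKM, and did not pass the test (log2 fold change 1.12 ± 0.38, adjusted p = 0.0576). Median log2 fold changes of markers of other cell types lay above 0 between the fasted genotypes, but few single markers were called by limma. Called were 1 of 8 sinusoidal endothelium markers, higher, and 1 of 10 hepatocyte markers, lower. Of 10 Kupffer cell, 7 stellate cell, 5 cholangiocyte and 5 lymphocyte markers, 0 were called, against 18.8% of all genes. The median log2 fold change was 1.01 for cholangiocyte, 0.57 for Kupffer cell, 0.48 for stellate cell, 0.36 for sinusoidal endothelium and 0.13 for lymphocyte markers. Stellate sums did not overlap between the genotypes, Kupffer and cholangiocyte sums did, and their part in these values was not tested. In bulk RNA, fewer cells of a type and less RNA per cell cannot be told apart.

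**Figure D2:**
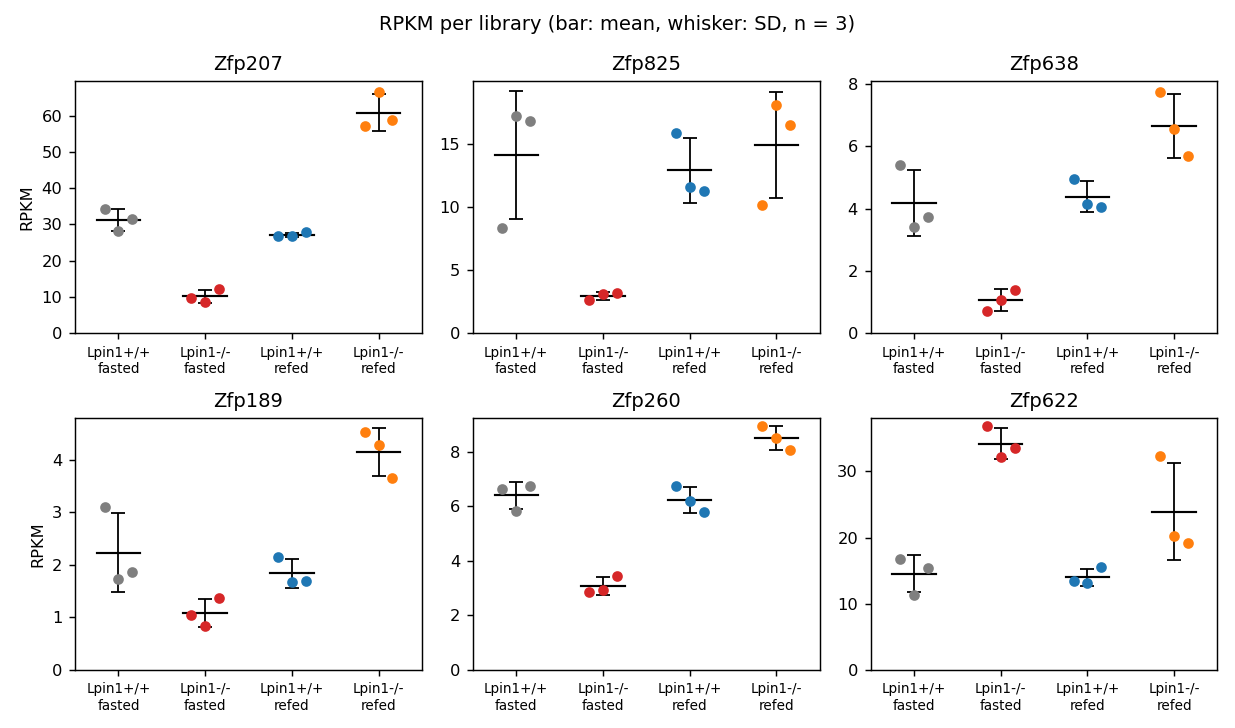
RPKM of 6 Zfp genes in every library (points), with the mean (bar) and SD (whisker) of the 3 mice in each group. In Zfp207, Zfp825, Zfp638, Zfp189 and Zfp260 the 3 fasted Lpin1-/- livers hold the lowest values, and in Zfp622 they lie above all fasted Lpin1+/+ livers.

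In refed liver, 6 members were higher and 2 were lower in Lpin1-/- mice, 7.21% of the members against 6.67% of all genes tested. Of all genes tested, 299 were higher and 468 were lower. Groups did not overlap for 45 members (40.5%), against 33.9% of all genes. Rescaling gave 10 higher and 1 lower, and leaving out the 3 libraries least like their group gave 7 higher and 1 lower. Over all genes, rescaling gave 426 higher and 311 lower. Leaving out any refed library left 1 or 2 calls, and leaving out fasted Lpin1+/+ replicate 3 or fasted Lpin1-/- replicate 2 or 3 left 3 to 5. Same-numbered libraries deviated together in this comparison, and with the replicate number as a block 3 members were called, Zfp207, Zfp672 and Zfp189 (adjusted p = 0.0126, 0.0339 and 0.0385 by limma). The members' median log2 fold change was 0.20, against -0.07 for all genes, and 0.30 against 0.03 on rescaling.

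Zfp207 had the largest change among the 8 called members, here with the higher level in Lpin1-/- mice, at 26.9, 26.8 and 27.8 RPKM in refed Lpin1+/+ and 57.1, 66.7 and 58.8 RPKM in refed Lpin1-/- liver. Its log2 fold change was 1.13 ± 0.16 (adjusted p = 0.00316). Zfp672 was at 5.49, 4.46 and 4.29 RPKM against 9.5, 11.1 and 8.85 RPKM, and rose by 0.91 on the log2 scale (adjusted p = 0.0147). Zfp189 was at 2.15, 1.66 and 1.69 RPKM against 4.53, 4.29 and 3.64 RPKM (log2 fold change 0.86, adjusted p = 0.0265). None of these 3 genes overlapped between genotypes. Zfp639 (8.68 ± 0.579 against 15.2 ± 0.709 RPKM, SD), Zfp68 (5.12 ± 0.642 against 8.94 ± 1.2) and Zfp410 (7.09 ± 0.617 against 11.5 ± 0.317) were the others that were higher, with calls lost in 8, 10 and 8 of 15 alternatives. Zfp410 encodes an activator of Chd4, the ATPase of the NuRD complex. Chd4 itself was not called between genotypes in refed liver (log2 fold change 0.55, adjusted p = 0.448 by limma). The lower members were Zfp467, a promoter of adipocyte differentiation, at 9.82, 7.48 and 5.83 RPKM against 3.52, 4.66 and 3.62 RPKM, and Zfp414, at 7.87, 8.2 and 8.04 RPKM against 4.5, 4.81 and 5.13 RPKM. Their adjusted p of 0.0459 and 0.0485 lay close to the threshold and were lost in 10 and 12 of 15 alternatives. Of the 34 KRAB members, 0 were called by limma in refed liver, against 6.67% of all genes. An unadjusted p under 0.05 was found for 8 of the 34 and for 2585 of all 11507 genes tested.

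Zfp207, Zfp189, Zfp414 and Zfp467 passed the test in both feeding states. Zfp414 and Zfp467 were lower in Lpin1-/- mice both times, by 0.85 and 1.00 in fasted and by 0.64 and 0.80 in refed liver on the log2 scale. Zfp207 and Zfp189 were lower in fasted and higher in refed Lpin1-/- liver. The fasted call of Zfp189 (adjusted p = 0.0482) was lost in 12 of 15 alternatives and its refed call in 6. By sign alone, 39 members were lower in fasted and higher in refed, 41 higher in both, 23 lower in both and 8 higher in fasted and lower in refed. These patterns were not counted over all genes. In fasted liver 62 of 111 members and 6964 of 11507 genes lay below 0. In refed liver 80 members and 5035 genes lay above 0.

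**Figure D3:**
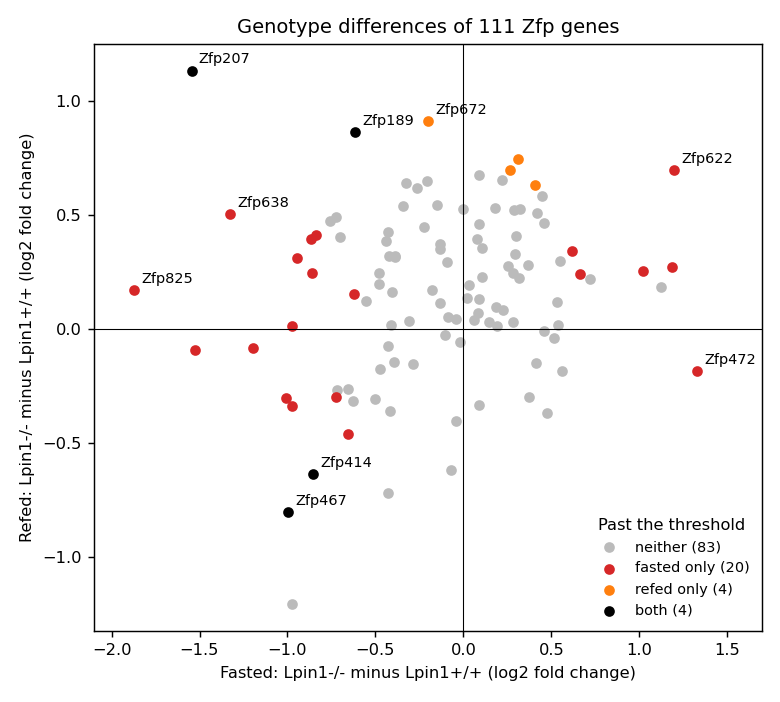
Log2 fold change between genotypes of each of the 111 Zfp genes in fasted liver (x axis) and refed liver (y axis), coloured by where it passed the test. Of the genes past the threshold, 20 passed in fasted liver only, 4 in refed liver only and 4 in both, with Zfp207 and Zfp189, lower in fasted and higher in refed Lpin1-/- liver, at the upper left.

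Refeeding of Lpin1-/- mice changed 33 members, of which 30 rose and 3 fell. They made up 29.7% of the members, against 20.7% of all genes tested, and groups did not overlap for 59 members (53.2%) against 46.8%. Of all genes tested, 2046 rose and 336 fell. Rescaled libraries gave 24 that rose and 6 that fell, and without the 3 libraries least like their group 28 rose and 5 fell. Over all genes, rescaling gave 1255 that rose and 566 that fell. The median log2 fold change was 0.36 for the members and 0.25 for all genes, and 0.17 and 0.06 on rescaling. This contrast shares the fasted Lpin1-/- libraries with the genotype difference in fasted liver.

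Zfp207 rose most, from 9.64, 8.68 and 12.1 RPKM to 57.1, 66.7 and 58.8 RPKM, a log2 fold change of 2.48 ± 0.16 (adjusted p = 2.67e-05). Zfp825 rose from 2.59, 3.10 and 3.17 RPKM to 10.1, 18.0 and 16.5 RPKM (log2 fold change 1.97 ± 0.29), and Zfp638 rose by 1.90 on the same scale. Zfp809, which binds the primer-binding site of retroviral elements, rose from 6.64, 5.33 and 6.23 RPKM to 26.8, 23.5 and 23.7 RPKM, with a log2 fold change of 1.86 ± 0.34 (adjusted p = 0.00399). All 3 refed values were above all fasted values in each of these genes. Zfp809 was at 14.7, 9.87 and 7.83 RPKM in fasted and 29.3, 21.6 and 9.6 RPKM in refed Lpin1+/+ liver, where the groups overlapped and the test was not passed. Zfp219, a transcriptional repressor, rose by 1.65 on the log2 scale, from 1.25, 2.74 and 4.11 RPKM to 12.6, 7.81 and 10 RPKM. Zfp472 (mean 2.47 RPKM), Zfp956 (2.25) and Zfp949 (2.02) fell by 1.45, 0.76 and 0.75 on the log2 scale. Zfp472 was at 7.97, 4.59 and 3.82 RPKM in fasted and at 1.3, 1.2 and 1.34 RPKM in refed Lpin1-/- liver. Kupffer cell markers had a median log2 fold change of -1.47 in this contrast, with 1 of 10 lower, and their part in the values was not tested.

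**Figure D4:**
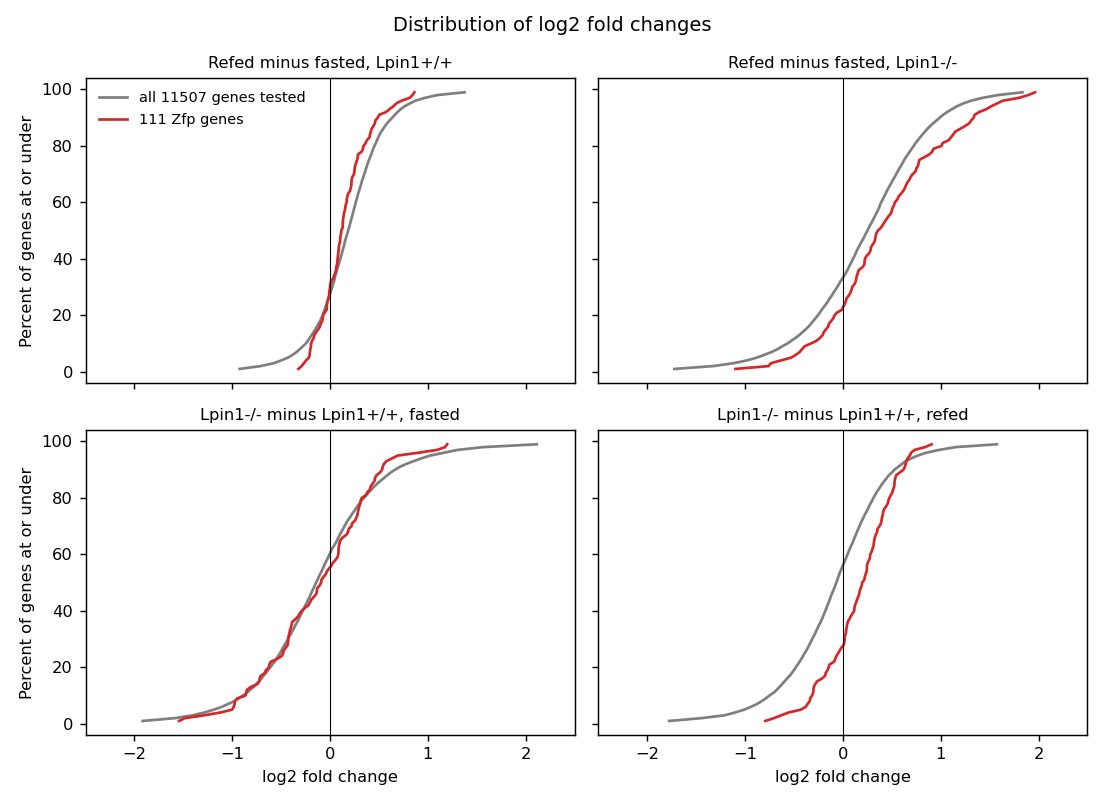
Percent of genes (y axis) at or under each log2 fold change (x axis) in the 4 contrasts, for the 111 Zfp genes (red) and all 11507 genes tested (grey). The Zfp line lies to the right of the grey line in the feeding contrast of Lpin1-/- mice, with medians of 0.36 and 0.25. In refed liver it lies to the right up to the 93rd percentile, with medians of 0.20 and -0.07, and to the left above it.

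Whether feeding acted differently in the 2 genotypes was tested as an interaction. The test was passed by 5 members, 4.5% against 1.28% of all genes tested. All 5 had a higher log2 fold change on refeeding in Lpin1-/- than in Lpin1+/+ liver. Of all genes that passed, 91 had a higher and 56 a lower one. For Zfp207 the difference between the feeding responses was 2.68 ± 0.23 on the log2 scale (adjusted p = 0.00101). Its log2 fold change on refeeding was -0.19 in Lpin1+/+ mice (adjusted p = 0.626). The difference was 2.04 for Zfp825 (adjusted p = 0.0371), 1.83 for Zfp638 (0.0163), 1.48 for Zfp189 (0.0325) and 1.26 for Zfp260 (0.023). Zfp189 was at 3.10, 1.73 and 1.85 RPKM in fasted Lpin1+/+, 1.04, 0.834 and 1.37 RPKM in fasted Lpin1-/-, 2.15, 1.66 and 1.69 RPKM in refed Lpin1+/+ and 4.53, 4.29 and 3.64 RPKM in refed Lpin1-/- liver. Zfp260 was at 6.74, 6.19 and 5.78 RPKM in refed Lpin1+/+ and 8.93, 8.52 and 8.06 RPKM in refed Lpin1-/- liver. In these genes the fasted Lpin1-/- group was the lowest of the 4. Rescaling gave 11 members past the threshold, 10 with a higher and 1 with a lower log2 fold change on refeeding in Lpin1-/- than in Lpin1+/+ liver. Over all genes rescaling raised the calls from 147 to 320. Without the 3 libraries least like their group 3 passed. Of the 15 alternatives run for each gene, the call was lost in 11 for Zfp825, 9 for Zfp189, 7 for Zfp260, 1 for Zfp638 and 0 for Zfp207, and leaving out single libraries (fasted Lpin1+/+ replicate 3, fasted Lpin1-/- replicates 1 and 2, each refed Lpin1+/+ replicate, and refed Lpin1-/- replicates 2 and 3) left 1 to 3 calls.

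Over the 5 contrasts 66 members were never called, 27 were called once, 12 in 2 contrasts, 4 in 3 contrasts and 2, Zfp207 and Zfp189, in 4 contrasts. Of the 9 members that bind RNA or serve translation, 3 were called in fasted liver between genotypes (Zfp207 and Zfp638 lower, Zfp622 higher), 33.3% against 18.8% of all genes, and 3 rose on refeeding in Lpin1-/- mice (Zfp207, Zfp638 and Zfp830, a splicing factor, at 0.66 on the log2 scale), 33.3% against 20.7%. The call of Zfp830 was lost in 10 of 15 alternatives. Zfp598 (log2 fold change 0.08 between genotypes in fasted liver) and Zfp593 (0.56) were not called in any contrast. Of the 7 members listed for chromatin complexes, Zfp148 and Zfp219 were lower in fasted Lpin1-/- liver and rose on refeeding, and Zfp335 rose on refeeding by 1.15. Zfp410, on this list although described above as an activator of Chd4, was higher in refed Lpin1-/- liver. These calls are 28.6% of the list in fasted liver, 42.9% on refeeding and 14.3% in refed liver, against 18.8%, 20.7% and 6.67% of all genes. The fasted calls of Zfp148 and Zfp219 were lost in 7 and 12 of 15 alternatives, and the Zfp219 values of the genotypes overlapped. Zfp281, Zfp592 and Zfp687 passed in 0 of the 5 limma contrasts, and Zfp281 had a single value of 10.1 RPKM in fasted Lpin1+/+ replicate 1 against 1.98 and 1.69 RPKM in the other libraries of that group. Zfp445 varied as widely, from 3.91 to 19.9 RPKM in fasted Lpin1+/+ liver, and was not called. Zfp64 and Zfp384, promoter activators, were not called either.

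The partners that KRAB proteins work with were measured as well. Of 28 partners tested, 11 rose on refeeding in Lpin1-/- mice, 39.3% against the 20.7% of all genes. Trim28, the scaffold that binds the KRAB box, was at 12, 16.9 and 16.1 RPKM in fasted and at 31.5, 27.9 and 25.8 RPKM in refed Lpin1-/- liver (log2 fold change 0.89, adjusted p = 0.0178). Setdb1 rose by 1.09 and the HP1 gene Cbx5 by 0.97 on the same scale. The others were Cbx3, Hdac2, Mta2, Pphln1, Rbbp7, Rcor1, Smarcad1 and Sumo2. Setdb1 and Cbx5 were also lower in fasted Lpin1-/- than Lpin1+/+ liver, with log2 fold changes of -0.73 and -0.75 (adjusted p = 0.0493 and 0.0129 by limma). They were the only 2 of 28 partners called there, 7.14% against 18.8% of all genes. In refed liver 0 of 28 were called between genotypes, against 6.67% of all genes. An unadjusted p under 0.05 was found for 4 of the 28 and for 2585 of all 11507 genes tested. Among KRAB members 11 of 34 changed on refeeding in Lpin1-/- mice, 9 of them higher (32.4% against 20.7% of all genes), while between genotypes in fasted liver 4 were lower and 1 was higher (14.7% against 18.8%). Rescaling left 7 partners that rose, and 7 KRAB members that rose beside 2 that fell. Over all genes 1255 rose and 566 fell on rescaling, against 2046 and 336 without it.

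Exon skipping was measured as well, as counts of reads that include or skip a cassette exon, from which an inclusion level between 0 and 1 follows. Inclusion counts hold reads that lie within the exon as well as reads across its junctions. For an exon inside a longer one, reads of other or unspliced transcripts could add to inclusion, which was not tested. In fasted liver 92 of 484 tested events of the members differed between genotypes, 19% against 11.3% of the 69644 events of all genes. They lay in 37 of 85 members with a tested event, 43.5%, against 34.7% of all genes with one. Inclusion was lower in Lpin1-/- liver in 65 events and higher in 27. Of all called events, 31.1% had higher inclusion, close to the share in the members. An event of a member had a median of 81 counts per library, against 333 for all genes, so small differences were less detectable in the members. Events that share a skipping junction share counts and are not independent. Leaving out any library but the last listed of the fasted Lpin1-/- group left 33 to 53 calls.

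The largest difference was in Zfp410, in an insert of 82 nucleotides at chr12:84325863-84325944 on the plus strand of GRCm38. Its inclusion was 0.0108, 0.0472 and 0.0386 in the fasted Lpin1+/+ libraries, in the order the lists give, and 0.669, 0.676 and 0.588 in the fasted Lpin1-/- libraries, from 71 to 169 counts each (adjusted p = 0.000785). The groups were far apart. In refed liver the insert was close to absent in both genotypes, at 0 to 0.0151 in Lpin1+/+ and 0.0126 to 0.0263 in Lpin1-/- (adjusted p = 0.296), in an event with other flanks. The 82 nucleotides lie inside a longer exon that GENCODE M21 gives to a non-coding transcript of the gene. Read on from the coding exon before it, the insert meets 2 stop codons in frame, the first in capitals below. In Zfp207 an exon of 93 nucleotides at chr11:80393084-80393176 on the plus strand, coding and a multiple of 3 long, went from a mean inclusion of 0.115 ± 0.00917 to 0.463 ± 0.0987 (SD, n = 3 libraries). Its adjusted p was 0.0153 by limma, and it was described after its values were seen, since it belongs to the gene that changed most in level. The capitals in its sequence are the 49 bases that a shorter form of the exon, also listed, holds.
Zfp410: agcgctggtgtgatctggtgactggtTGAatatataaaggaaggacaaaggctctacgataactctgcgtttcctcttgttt
Zfp207: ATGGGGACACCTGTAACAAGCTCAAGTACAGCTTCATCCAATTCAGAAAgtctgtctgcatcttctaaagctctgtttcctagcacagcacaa

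In refed liver the Zfp207 exon stood at 0.0703 ± 0.0409 in Lpin1+/+ and 0.0923 ± 0.0213 in Lpin1-/- liver, so the high inclusion was found in the fasted Lpin1-/- group, the group with the lowest level of the gene. Zfp266 had the next largest differences, in overlapping exons of 102 and 155 nucleotides, with inclusion at 0.921, 0.933 and 0.957 against 0.314, 0.369 and 0.318 for the shorter form (difference -0.60, adjusted p = 0.0011). An exon of 181 nucleotides in Zfp263, a SCAN gene, was included in every read in fasted Lpin1+/+ liver and at 0.522, 0.509 and 0.498 in Lpin1-/- liver, where only 20 to 37 counts were found per library. The same exon was listed with other flanks, and the event with most counts had 0.415, 1 and 0.888 in Lpin1-/- liver (difference -0.23, adjusted p = 0.0109), so that 1 library reached the Lpin1+/+ level. In Zfp787 an insert of 67 nucleotides went the other way, from 0.289, 0.298 and 0.407 to 0.965, 0.76 and 0.679 (adjusted p = 0.0208), and no such exon is annotated. Apart from that other Zfp263 event, none of these events overlapped between genotypes.

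**Figure D5:**
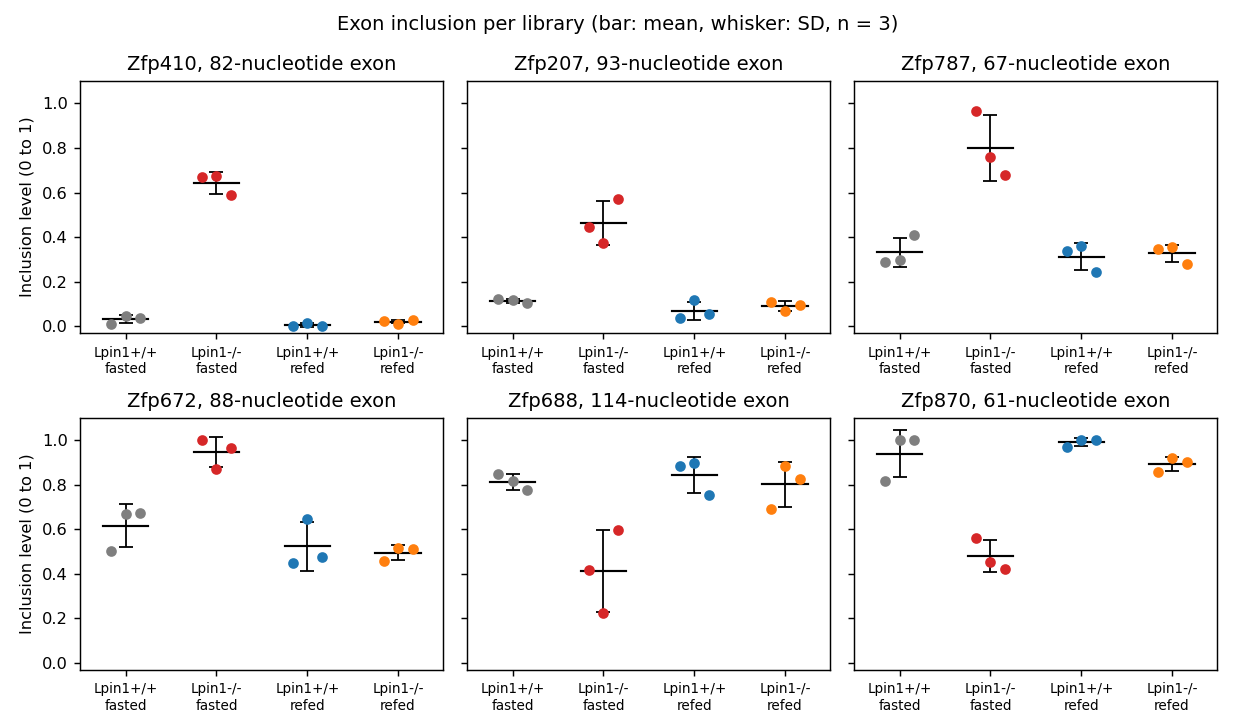
Inclusion level (0 to 1) of 6 exons in each library (points), with the mean (bar) and SD (whisker) of the 3 libraries of a group. In each panel the fasted Lpin1-/- libraries stand apart, above the others in Zfp410, Zfp207, Zfp787 and Zfp672 and below them in Zfp688 and Zfp870.

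Of the 85 distinct exons called, 40 were wholly coding, against 133 of the 387 exons tested, 23 lay inside a longer annotated exon and 13 match no annotated exon. The exon length was a multiple of 3 in 29 of the 92 called events, against 179 of the 484 tested. Of the wholly coding exons tested 30.1% were called, 34 of them with less inclusion in fasted Lpin1-/- liver. Exons that encode a C2H2 finger match were called in 7 of 26 cases, 6 with less inclusion. Of them, the exon of 124 nucleotides in Zfp740 fell most, from a mean inclusion of 0.996 to 0.606 (adjusted p = 0.00115). The letters of a KRAB box lay in 8 tested exons, of which 4 were called, all with less inclusion. The 4 were close to full inclusion in fasted Lpin1+/+ liver (values below), which left almost no room for the other direction. These 4 exons, described after their values were seen, come from Zfp871 (chr17:32777401-32777527, minus strand), Zfp961 (chr8:71965794-71965920, plus strand), Zfp426 (chr9:20474907-20475033, minus strand) and Zfp655 (chr5:145235737-145235863, plus strand). Each is 127 nucleotides long, not a multiple of 3, and holds the KRAB letters at bases 19 to 51, in capitals here. A transcript that skips the exon lacks these letters.
Zfp871: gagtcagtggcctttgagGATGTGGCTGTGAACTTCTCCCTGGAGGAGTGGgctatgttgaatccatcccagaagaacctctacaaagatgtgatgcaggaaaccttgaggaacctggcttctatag
Zfp961: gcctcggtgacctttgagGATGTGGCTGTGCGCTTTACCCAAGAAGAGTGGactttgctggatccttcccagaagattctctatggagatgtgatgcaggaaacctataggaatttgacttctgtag
Zfp426: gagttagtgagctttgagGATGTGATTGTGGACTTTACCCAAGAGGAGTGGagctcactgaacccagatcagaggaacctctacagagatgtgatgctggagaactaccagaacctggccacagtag
Zfp655: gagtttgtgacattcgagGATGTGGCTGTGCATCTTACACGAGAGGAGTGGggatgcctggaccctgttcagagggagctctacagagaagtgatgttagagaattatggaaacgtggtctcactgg

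Inclusion of the Zfp871 exon was 1 in all 3 fasted Lpin1+/+ libraries and 0.736, 0.645 and 0.846 in the Lpin1-/- libraries (difference -0.26, adjusted p = 0.00486). The Zfp961 exon was at 0.962, 1 and 1 against 0.589, 0.93 and 0.904, and the Zfp655 exon was at 0.944, 1 and 0.971 against 0.828, 0.756 and 0.876. For the Zfp426 exon, 1 Lpin1-/- library with only 16 counts was at full inclusion and the other two were at 0.748 and 0.736, against 1, 0.955 and 1, so that its groups overlapped. Zfp426 was also the KRAB gene whose level fell by 1.19 on the log2 scale. In refed liver 0 of 105 wholly coding exons were called by limma, against 0.97% of the events of all genes.

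Refed liver held 2 called events in 478 tested of the members, 0.418% against 0.97% of all events, with 61 at an unadjusted p under 0.05. Both were inserts with no annotated exon, 29 nucleotides in Zfp930 (mean inclusion 0.0362 in Lpin1+/+ and 0.367 in Lpin1-/- liver) and 155 nucleotides in Zfp715 (0 and 0.104). Leaving out any of the 6 refed libraries left 0 calls. Refeeding changed 32 of 209 events in Lpin1-/- mice, 15.3% against 7.8% of all 28444 events found with the same coordinates in both feeding states. They lay in 23 of 69 members with such an event, 33.3%, against 20% of all genes with one. Leaving out the fasted Lpin1-/- library at list position 1 or 2, or the refed one at position 2 or 3, left 14 to 18 calls. In Lpin1+/+ mice, 0 of 209 were called by limma, against 0% of all events, with 19 at an unadjusted p under 0.05. Of the 32 called events in Lpin1-/- mice, 21 had more inclusion in refed liver, close to the 68% of all called events. The largest differences were those of Zfp787 (67 and 172 nucleotides, -0.47 and -0.44), Zfp672 (88 nucleotides, -0.45), Zfp870 (61 nucleotides, 0.41) and Zfp688 (114 nucleotides, 0.39). The plotted Zfp688 event has other flanks than the one called in the interaction. The test of the interaction was passed by 3 events of Zfp410 and Zfp688, 1.44% against 0.777% of all events. Leaving out 1 library left 0 or 1 call for 9 of the 12 libraries, all but those at position 2 of fasted Lpin1+/+, 3 of fasted Lpin1-/- and 3 of refed Lpin1+/+, which left 2 to 4.

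Of 24 members called in level between genotypes in fasted liver, 17 had a tested event and 6 of these a called event, beside 37 of all 85 members with a tested event. The 6 were Zfp148, Zfp207, Zfp426, Zfp444, Zfp638 and Zfp787. Zfp410, with the largest exon difference, was not called in level, at 7.11, 7.10 and 7.18 RPKM in fasted Lpin1+/+ and 10.8, 8.81 and 9.83 RPKM in fasted Lpin1-/- liver (log2 fold change 0.41, adjusted p = 0.0795). Many Zfp genes are close copies of each other, and reads that fit several copies could be split or dropped in the counting, which was not tested for any member.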

How the data were processed

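Liver RNA of 12 mice was sequenced from stranded libraries as paired reads of 69 bases, with each lane shared by the 12 libraries. The authors aligned reads to GRCm38 with HISAT2 (2.0.5 in the submitters' processing notes), counted them per gene with HTSeq (0.6.0) and deposited RPKM for each library, scaled by gene length and by mapped reads. Whether counting used strand, and which gene length was used, is not given in the sources used here. For skipped exons (SE), the authors deposited rMATS inclusion and skipping counts from reads on the exon and across junctions. They give the 3 libraries of a group in a row and no replicate names. Tables of the authors' selected events and of term enrichment were not used, except that the counts of the selected Lpin1+/+ events were compared with the genotype tables to settle which list is which group, and all 1523 and 1719 shared events were identical. The authors' p-values and FDR were not used.

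The 11507 genes that averaged 0.5 RPKM or more (among them all 111 members and 227 of the 336 listed Zfp genes) were tested with limma 3.58.1 in R 4.3.3, with a trend in the variance, on log2(RPKM + 1), in a fit of the 4 groups, and p-values were adjusted by Benjamini-Hochberg over all genes with a threshold of 0.05. Events were kept where each library had 10 counts or more. To each count 0.5 was added, and log2 of the length-normalised ratio of inclusion to skipping was tested with limma over the 6 libraries of a table, or over 12 libraries for feeding, among the 34409 events that both tables list at identical coordinates. The interaction of events was added after the data were seen. RPKM keeps no counts, and depth was estimated from whole-read steps at low values. No count test was run.

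Named members are the 12 with the highest mean, the 5 largest called changes in each direction of each contrast whose groups did not overlap, members of 5 role lists and those next to the 2 RPKM minimum, and named events are the 5 largest called differences of each fit. Further called members are named where a count is listed in full. Members and lists were chosen with earlier results of these data known. Protein classes come from letter patterns (C2H2, KRAB, SCAN, CCCH) in translated coding sequences of GENCODE M21 (GRCm38). All 111 members had 1 gene there, and 5 of them had no C2H2 match. Exon sequences are from transcripts of GENCODE M21. Alternatives tried were 0.1 as pseudocount, no filter, a filter of 2 RPKM, rescaled libraries, the replicate number as a block, each library left out, the 6 compared libraries alone, member minimums of 1 and 5 RPKM, and, for events, at least 20 counts, 1 added to each count and an inclusion difference of at least 0.1. Leaving out 3 libraries together was added after the data were seen. The fits were checked on simulated data. The labels do not say that replicate numbers pair the mice. Deviations from the group means correlated at 0.162 to 0.297 between same-numbered libraries of the refed genotypes, over 0.1 in every pair, and at -0.474 to 0.251 in the other 3 comparisons, where they did not.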

Additional observations from a re-analysis of the deposited data

Results flagged for a closer look

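The feeding response differed between genotypes for 5 Zfp genes by the interaction term of limma. The log2 difference, Lpin1-/- minus Lpin1+/+, was 2.68 for Zfp207, 2.04 for Zfp825, 1.83 for Zfp638, 1.48 for Zfp189 and 1.26 for Zfp260. In each of them all 3 fasted Lpin1-/- libraries lay under all 3 refed Lpin1-/- libraries. Zfp207 passed the test in all 15 alternatives, with values from 2.58 to 2.80.

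Inclusion of 3 exons also responded differently by the same test. The difference between the responses was -0.0958 for the Zfp410 exon of 136 nucleotides, 0.2 for the Zfp410 exon of 151 nucleotides and 0.384 for the Zfp688 exon of 114 nucleotides. The same Zfp688 exon in the event of most counts, which has other flanks, did not pass (0.356, adjusted p = 0.313). The 136-nucleotide exon had 0 skipping counts in each fasted Lpin1-/- library and 2 to 5 in each refed Lpin1-/- library, out of 117 to 284 counts in all. In Lpin1+/+ libraries it had 3, 4 and 2 skipping counts when fasted and 1, 0 and 0 when refed, so its call rests on few skipping reads. The 151-nucleotide exon, which encodes a C2H2 finger match, had 10 to 25 skipping counts in fasted Lpin1-/- libraries and 0 in each refed Lpin1-/- library of 438 to 531 counts in all. In Lpin1+/+ libraries it had 0, 1 and 0 skipping counts when fasted and 7, 0 and 0 when refed.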

How the results depend on the processing

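Of 3300 values of the 44 named members under alternatives, 3119 stayed called or stayed not called, 30 gained a call and 151 lost it. Among called values 0 changed direction. Changes of direction among values called neither before nor after were not counted. Of 48 called values, 28 were kept in all 15 alternatives. Rescaled libraries gave 0 calls on refeeding in Lpin1+/+ mice (1 as reported) with a median of -0.0697, a median of 0.168 on refeeding in Lpin1-/- mice, and 11 calls for the interaction (5 as reported). Over all genes, rescaling gave 320 calls for the interaction (147 without it). A member minimum of 5 RPKM gave 0, 14, 12 and 3 calls for refeeding in Lpin1+/+, refeeding in Lpin1-/-, genotype in fasted liver and the interaction, and a minimum of 1 RPKM gave 2, 61 and 40 for the first 3, since fewer or more genes are counted. The 6 compared libraries alone gave 0 calls on refeeding in Lpin1+/+ mice and 10 of 24 in fasted liver. That fit has fewer samples to estimate the spread, while the main fit pools it over the 4 groups. The members' median SD (log2) was 0.272 in fasted Lpin1+/+ and 0.242 in fasted Lpin1-/- liver. In refed liver it was 0.19 and 0.174. No filter on low values gave 3 interaction calls. Without the 3 libraries least like their group there were 2 calls on refeeding in Lpin1+/+ mice and 3 for the interaction, and at least 20 counts gave 0 of 2 events in refed liver. The cause of these shifts was not tested.

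Outside the comparison of genotypes in refed liver, same-numbered libraries did not all deviate together. The labels name no pairs of mice in any comparison, and correlations of deviations cannot settle whether there were any. A replicate block gave 0 calls on refeeding in Lpin1+/+ mice, 3 of 8 in refed liver and 3 of 5 for the interaction. Leaving out each library gave 0 to 1 calls on refeeding in Lpin1+/+ mice, 23 to 43 on refeeding in Lpin1-/- mice, 13 to 26 in fasted and 1 to 12 in refed liver and 1 to 7 for the interaction. For events it gave 33 to 81 in fasted liver, 0 in refed liver, 14 to 31 on refeeding in Lpin1-/- mice and 0 to 4 for the interaction. The median over members kept its sign when a library was left out, with a range of -0.223 to -0.0295 between genotypes when fasted and of 0.16 to 0.285 when refed.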

Other observations

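Other families of C2H2 factors were measured beside the Zfp genes. Of 16 Zscan and Zkscan genes, 8 rose and 1 fell on refeeding in Lpin1-/- mice, 56.2% against 20.7% of all genes tested, with a median log2 fold change of 0.78, and in fasted liver 3 were lower in Lpin1-/- than in Lpin1+/+ mice, 18.8% as for all genes. Of 36 Zbtb genes, 6 rose and 2 fell on the same refeeding, 22.2% against 20.7%, with a median of 0.36. The Klf genes, which encode factors that bind GC-rich promoters, had 0 of 13 that rose and 3 that fell (23.1%) on refeeding in Lpin1-/- mice by limma (4 at an unadjusted p under 0.05) and a median of -0.67, while 4 were higher and 0 lower in fasted Lpin1-/- liver (7 at an unadjusted p under 0.05), 30.8% against 18.8% of all genes, with a median of 0.75. Of the 116 Zfp genes between 0.5 and 2 RPKM, 43 rose and 0 fell on refeeding in Lpin1-/- mice (63 at an unadjusted p under 0.05), a share of 37.1% against 20.7% of all genes.

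Refed Lpin1+/+ replicate 1 held the highest value of its group for 79 of the 111 members, 71.2%, against 45.8% of all genes tested.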
